A study of Mus musculus with 8 samples.

Results

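The 7 atrial myocardium genes Myl7, Myl4, Sln, Nppa, Bmp10, Dkk3 and Stard10 were followed library by library among the 34745 genes of a mouse heart RNA-seq table. They were chosen by name, from a list drawn up with the counts of these libraries in view. Each of the 8 libraries came from hearts of 1 genotype at 1 age, db/db or db/m (genotype db/+) at 4, 12, 24 or 32 weeks. All mice carried the C57BL/KsJ strain label and received no treatment, and the study's methods describe them as male. The db allele is a mutation of the leptin receptor gene Lepr. Mice with 2 copies (db/db) become obese and hyperglycaemic and are used as a model of type 2 diabetes, whereas db/m mice carry 1 copy and served as controls. The mutation is carried in every tissue, so the model is not specific to the heart. The series' design text and the study name 4, 24 and 32 weeks, and the 12-week libraries are described only by their labels. The study's methods assigned more db/db mice to RNA-seq than there were db/db libraries, but the sources used here do not state whether a library held 1 heart or a pool, or whether atria were left on the hearts. With 1 library per genotype and age there was no replicate at any age, so no p-value is given within an age, and intervals cover counting error only.

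Atrial and ventricular muscle cells share most of their contractile proteins but use different forms of the myosin light chains and different small regulators of calcium handling. In the adult heart, Myl7 and Myl4 encode the regulatory and the essential light chain of atrial myosin. Myl2 and Myl3 encode the light chains of the ventricle. Sarcolipin (Sln) restrains the calcium pump of the sarcoplasmic reticulum in the atrium, as phospholamban (Pln) does in the ventricle. Nppa encodes atrial natriuretic peptide, which is stored in atrial granules and is also induced in strained ventricles. Bmp10 encodes a growth factor made mainly by right atrial muscle. Dkk3 encodes a secreted glycoprotein of the dickkopf family, and Stard10 a phospholipid transfer protein that many tissues make.

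The genes lie apart in the genome (GRCm38). Myl7 (ENSMUSG00000020469) was placed on chromosome 11, from 5896637 to 5898782 on the minus strand, with 7 exons. Myl4 (ENSMUSG00000061086) lies on the same chromosome, from 104550663 to 104595753 on the plus strand. Sln was listed on chromosome 9 from 53850251 to 53853844, Nppa on chromosome 4 from 148000722 to 148002079, and Bmp10 on chromosome 6 from 87428994 to 87437677. Dkk3 was listed on chromosome 7 from 112116019 to 112159057, on the minus strand, and Stard10 on the same chromosome from 101317086 to 101346626. All are protein-coding genes. Stretches of 31 bases of Myl7, Sln, Bmp10, Dkk3 and Stard10 transcripts were found in no other gene of GENCODE vM21, and 0.623% of those of Myl4 were. For Nppa, 56.8% of the stretches also occurred in other genes on either strand, most often in the overlapping gene Gm13054. Reads could thus be split between Nppa and such genes. Gm13054 itself was counted 5 to 15 times per library.

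Promoter windows are shown for the atrial genes that varied most together and had an entry, for Mybphl, an atrial gene outside the 7 that is described later, and for Nppa, which varied less. Each runs from 250 bases before to 50 after the start site in RefSeq (GRCm38.p6), 5′ to 3′ on the strand of the gene. Of the 7 genes, 5 had an entry. Capitals mark matches on either strand to letters bound by factors of heart muscle. The letters searched for were AGATAA, the GATA motif, then AGGTGTG, which T-box factors bind, then TNAAGTG, which NKX2-5 binds, then CATTCC, the MCAT motif, and then AGGTCA, a nuclear receptor site, besides the CArG box and the MEF2 box.
Myl7, chr11:5898733-5899032, minus strand: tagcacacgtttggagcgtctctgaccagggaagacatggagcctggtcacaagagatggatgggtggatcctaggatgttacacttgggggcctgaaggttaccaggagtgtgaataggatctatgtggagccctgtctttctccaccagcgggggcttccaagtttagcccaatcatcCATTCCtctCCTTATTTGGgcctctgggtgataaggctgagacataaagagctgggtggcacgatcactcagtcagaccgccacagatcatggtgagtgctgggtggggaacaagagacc
Myl4, chr11:104550413-104550712, plus strand: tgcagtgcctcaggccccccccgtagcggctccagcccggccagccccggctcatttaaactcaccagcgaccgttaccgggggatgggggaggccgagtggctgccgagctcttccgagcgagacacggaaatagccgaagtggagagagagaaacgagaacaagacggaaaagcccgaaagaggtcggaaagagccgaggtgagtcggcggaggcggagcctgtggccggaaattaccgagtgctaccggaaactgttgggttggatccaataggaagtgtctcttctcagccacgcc
Nppa, chr4:148000472-148000771, plus strand: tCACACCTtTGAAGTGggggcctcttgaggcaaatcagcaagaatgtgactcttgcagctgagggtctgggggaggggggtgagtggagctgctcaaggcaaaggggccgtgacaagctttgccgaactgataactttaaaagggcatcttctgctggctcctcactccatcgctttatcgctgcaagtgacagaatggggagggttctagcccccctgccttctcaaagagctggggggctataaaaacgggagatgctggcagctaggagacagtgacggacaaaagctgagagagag
Mybphl, chr3:108364661-108364960, plus strand: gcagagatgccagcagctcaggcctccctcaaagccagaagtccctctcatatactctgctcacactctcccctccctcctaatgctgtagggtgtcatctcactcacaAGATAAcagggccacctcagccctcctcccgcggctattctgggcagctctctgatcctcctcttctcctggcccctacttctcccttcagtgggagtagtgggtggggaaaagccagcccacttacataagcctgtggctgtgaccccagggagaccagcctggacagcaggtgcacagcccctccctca

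In the Myl7 window, a CATTCC began 70 bases before the start site and was followed by a CArG box that began at 61 bases before it. CATTCC occurred in 14.7% and a CArG box in 1.63% of all 32851 windows. The Nppa window held the complement of AGGTGTG 249 bases and TGAAGTG 241 bases before the start site, and these letters were present in 5.84% and 11.5% of windows. The Mybphl window held AGATAA, as did 11.2% of windows. No searched motif was present in the Myl4 window, which belongs to the first annotated start of that gene. AGGTCA (16.3% of windows) and the MEF2 box (1.86%) were in none of these 4 windows.

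Some libraries stood apart on genes other than the atrial ones. The db/m library of 4 weeks held fast skeletal muscle genes at 138 CPM in sum (CPM, counts scaled to a common library total with TMM factors), against 3.07 to 17.3 CPM in the other 7. The libraries of db/m at 12 and 24 weeks and of db/db at 12 weeks differed from the other 5 by at least 4-fold, without overlap, on 8 of 14510 genes, a separation looked for after the atrial counts were known. Without the 4-week library, the atrial values rest on the pairs of 12, 24 and 32 weeks, and without the other 3 on those of 4 and 32 weeks. Genes of heart muscle shared by atria and ventricles were abundant in all 8 libraries, at 139050 CPM or more in sum.

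Reads on Myl7 were counted 0 times in db/m hearts at 4, 12 and 24 weeks and 552 times at 32 weeks. In db/db hearts the counts were 392, 0, 662 and 26 at 4, 12, 24 and 32 weeks. Myl7 was thus counted in 4 of 8 libraries, and both libraries of 12 weeks held none. The normalized level was 29.0 CPM in db/m at 32 weeks, 26.1 in db/db at 24 weeks, 17.9 in db/db at 4 weeks and 1.29 in db/db at 32 weeks. The first 2 of these levels differed by 1.11-fold (95% counting interval 0.991 to 1.25), within counting error. Totals ran from 14445436 to 26676268 counts per library, so 3 counts, the limit that a count of 0 allows, corresponded to between 0.118 and 0.181 CPM. In bulk tissue, fewer atrial cells and less RNA per atrial cell cannot be told apart.

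Myl4 was counted in all 8 libraries, 24, 14, 35 and 1435 times in db/m at 4, 12, 24 and 32 weeks and 1133, 37, 1958 and 116 times in db/db. Its 3 highest levels were 77.1 CPM in db/db at 24 weeks, 75.3 CPM in db/m at 32 weeks and 51.8 CPM in db/db at 4 weeks. The next was 5.73 CPM in db/db at 32 weeks, and the other 4 libraries lay between 0.676 and 1.61 CPM. These are the same 4 libraries that held no Myl7.

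Sln was counted 0, 0, 0 and 119 times in db/m and 71, 0, 113 and 2 times in db/db. Its levels in the 3 libraries with more than 2 counts ran from 3.25 to 6.24 CPM, far under those of Pln, which ran from 3183 to 4496 CPM over the 8 libraries. Per length, in the authors' FPKM, Sln reached 11.5 and Pln 1278 in db/m at 32 weeks.

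Dkk3 was counted 104, 46, 38 and 509 times in db/m and 991, 48, 663 and 108 times in db/db. The db/db library of 4 weeks held the most, at 45.3 CPM, against 26.7 CPM in db/m at 32 weeks and 26.1 CPM in db/db at 24 weeks. Levels in the other libraries ran from 1.75 to 6.28 CPM, so Dkk3 was counted everywhere, also where Myl7 and Sln were at 0.

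Nppa was counted 1079, 1494, 1686 and 4486 times in db/m and 1924, 939, 3527 and 910 times in db/db. The level was 235 CPM in db/m at 32 weeks, 139 in db/db at 24 weeks and 88.0 in db/db at 4 weeks, and between 38.4 and 77.8 CPM in the other libraries. Its 3 highest libraries were thus those of Myl7, but its range was 6.13-fold.

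Bmp10 and Stard10 did not follow this pattern. Bmp10 was counted 0, 3, 4 and 3 times in db/m and 0, 2, 7 and 5 times in db/db, which does not distinguish any neighbouring levels beyond counting error. The highest level, in db/db at 24 weeks, was 0.276 CPM. Stard10 was counted 165, 202, 241 and 237 times in db/m and 177, 225, 353 and 215 times in db/db. From 8.09 to 13.9 CPM, its range was 1.72-fold, below the median range of all genes, 1.92-fold, and no 2 neighbours in the order of its levels differed beyond counting error. Of the other 6 genes, Myl4, Sln and Dkk3 thus shared the 3 highest libraries of Myl7 with a wide range, Nppa shared them with a smaller range, and Bmp10 and Stard10 did not share them.

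**Figure D1:**
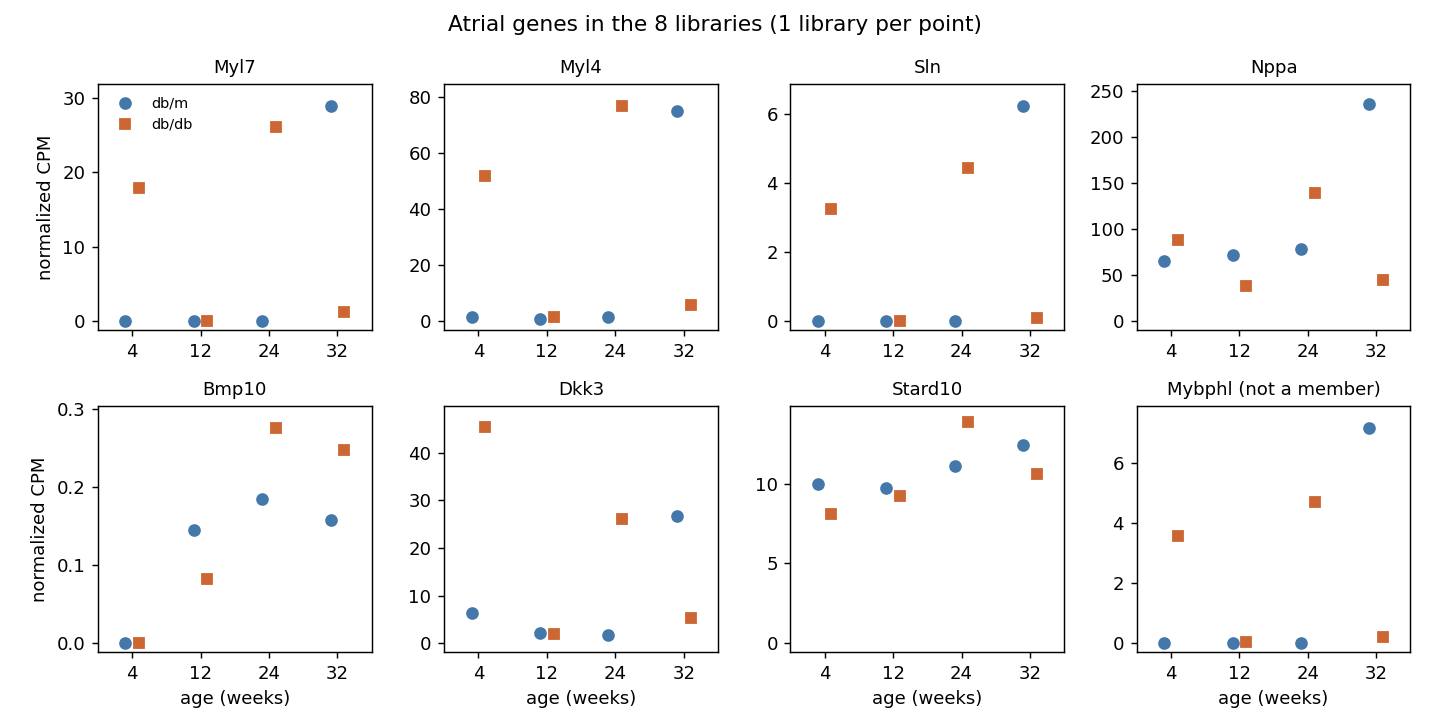
TMM-normalized CPM (vertical axes) of the 7 atrial genes and of Mybphl against age in weeks (horizontal axes), 1 library per point, circles for db/m and squares for db/db. Myl7, Myl4, Sln, Dkk3 and Mybphl are high in db/m at 32 weeks and in db/db at 4 and 24 weeks, whereas Stard10 stays between 8.09 and 13.9 CPM.

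Per length, the order of the atrial genes changed between libraries. In db/m at 32 weeks the FPKM was 258 for Nppa, 46.5 for Myl7, 12.8 for Myl4, 11.5 for Sln, 7.53 for Dkk3 and 1.98 for Stard10. In db/m at 24 weeks it was 87.7 for Nppa, 1.83 for Stard10, 0.510 for Dkk3 and 0.283 for Myl4, with Myl7 and Sln at 0. Bmp10 was under 0.1 FPKM in both, at 0.0332 and 0.0401.

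The range over the 8 libraries, the highest over the lowest level with counts under 3 raised to 3, was 236-fold for Myl7, 114-fold for Myl4, 50.9-fold for Sln and 25.9-fold for Dkk3. A range of at least 16-fold was present in these 4 of 7 genes and in 2.08% of the 16860 genes with enough counts. Since the genes were chosen for this pattern, their ranges are a description.

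Myl7 was set against its ventricular counterpart Myl2 within each library, which needs no scaling between libraries. Myl2 was counted 17428, 33736, 42792 and 35932 times in db/m and 37126, 45219, 47944 and 34443 times in db/db, a range of 1.87-fold in CPM. Of the Myl7 and Myl2 counts together, Myl7 made up 1.51% (exact Clopper-Pearson 95% interval 1.39 to 1.64) in db/m at 32 weeks. The share was 1.04% (0.944 to 1.15) in db/db at 4 weeks, 1.36% (1.26 to 1.47) at 24 weeks and 0.0754% (0.0493 to 0.111) at 32 weeks. The intervals of db/m at 32 weeks and db/db at 24 weeks overlapped. In the 4 libraries without Myl7 counts, a count of 0 allows shares of up to 0.0172%, 0.00889%, 0.00701% and 0.00663% (db/m at 4, 12 and 24 weeks and db/db at 12 weeks). On FPKM, which divides by gene length, the 3 higher shares were 7.37%, 5.18% and 6.67%.

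The essential light chains gave the same order of libraries at the top and more resolution at the bottom. Myl4 made up 2.89% (2.74 to 3.04) of the Myl4 and Myl3 counts in db/m at 32 weeks, 1.73% (1.63 to 1.83) in db/db at 4 weeks and 2.62% (2.50 to 2.73) in db/db at 24 weeks. In db/db at 32 weeks it made up 0.290% (0.240 to 0.348). In the remaining libraries it ran from 0.0232% to 0.0813%, above 0 in each. On FPKM the 3 higher Myl4 shares were 1.42%, 0.845% and 1.29%, so the Myl4 shares exceeded the Myl7 shares on counts and were under them on FPKM. Whether these low Myl4 counts came from atrial or other cells was not tested.

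**Figure D2:**
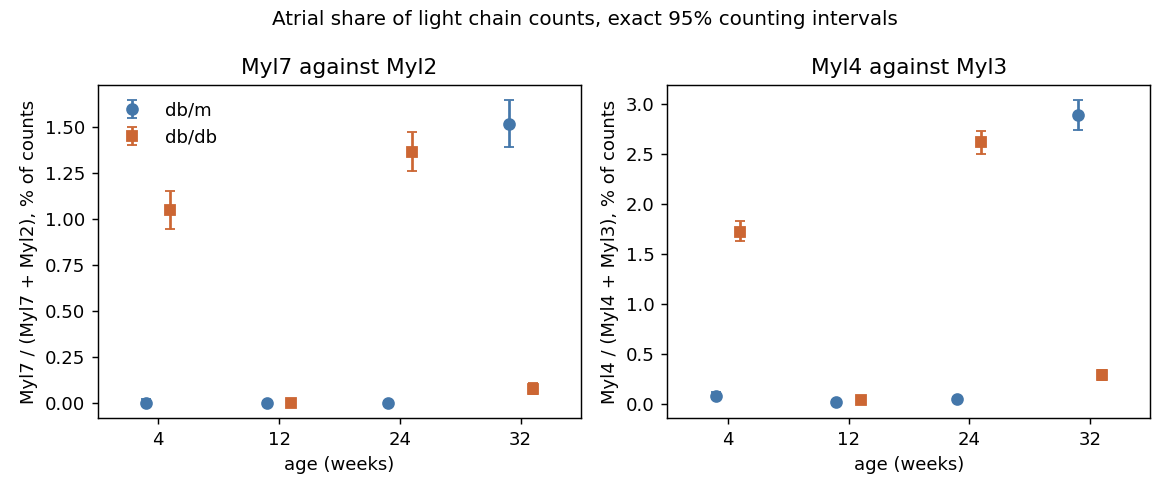
Share of the atrial light chain in the counts of an atrial and a ventricular light chain (percent, vertical axes), Myl7 with Myl2 on the left and Myl4 with Myl3 on the right, against age in weeks. Points are single libraries, circles db/m and squares db/db, with exact 95% counting intervals. In both panels the shares of db/m at 32 weeks and of db/db at 4 and 24 weeks stand above 1%, and the other 5 stand below 0.4%.

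The comparison of db/db with db/m within each age asks how the genotypes differed before, during and late in diabetes. For the atrial genes the direction turned with age. At 4 weeks, Myl7 was at least 98.9-fold and Sln at least 17.9-fold higher in db/db, against 3 counts in db/m, Myl4 was 35.7-fold (23.9 to 56.0) and Dkk3 7.21-fold (5.89 to 8.91) higher. Nppa was 1.35-fold (1.25 to 1.46) higher. Of the 6 members with at least 10 counts in the pair, 4 were at least 4-fold higher in db/db, beside 0.767% of 16559 genes, and 0 were 4-fold lower, beside 2.53%.

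At 12 weeks, 0 of the 4 members with enough counts differed by 4-fold, beside 0.619% of 16472 genes higher and 0.540% lower. Myl7 and Sln were at 0 in both libraries, and Myl4 was 2.24-fold (1.18 to 4.48) higher in db/db. The Nppa level was 1.88-fold (1.73 to 2.04) higher in db/m.

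At 24 weeks, Myl7 was at least 188-fold and Sln at least 32.2-fold higher in db/db, while Myl4 was 47.8-fold (34.2 to 68.8) and Dkk3 14.9-fold (10.7 to 21.2) higher. Nppa was 1.79-fold (1.68 to 1.89) and Stard10 1.25-fold (1.06 to 1.48) higher. Past 4-fold were 4 of 7 members higher, beside 2.39% of 16608 genes, and 0 lower, beside 1.46%.

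At 32 weeks the direction was opposite. Myl7 was 22.5-fold (15.2 to 34.8), Myl4 13.1-fold (10.9 to 16), Nppa 5.23-fold (4.87 to 5.62) and Dkk3 5.00-fold (4.06 to 6.21) higher in db/m. Sln, counted 119 times in db/m and 2 times in db/db, gave a ratio of 63.1 (17.1 to 527). Of 6 members with enough counts, 5 were at least 4-fold lower in db/db, beside 1.24% of 16445 genes, and 0 were 4-fold higher, beside 1.61%. The choice of the members used these same counts, and nothing is read from the excess over the background.

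**Figure D3:**
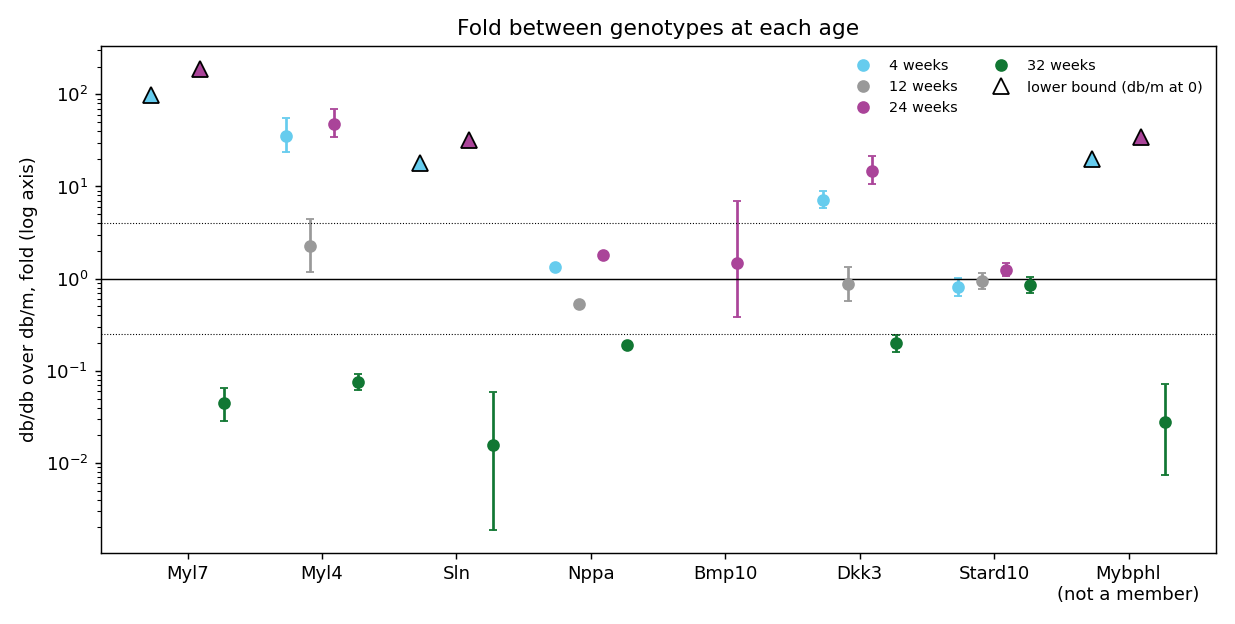
Fold of db/db over db/m (log vertical axis) for the 7 atrial genes and Mybphl (horizontal axis) at each age by colour, for pairs with at least 10 counts. Circles carry 95% counting intervals, triangles are lower bounds against 3 counts in db/m, and dotted lines mark 4-fold either way. Myl7, Myl4, Sln, Dkk3 and Mybphl lie above the upper line at 4 and 24 weeks and below the lower line at 32 weeks.

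Among 15765 genes with enough counts at 4, 24 and 32 weeks, 9 (0.0571%) shared the direction of Myl7, with db/db above db/m by 4-fold or more at 4 and 24 weeks and below it at 32 weeks. They were Myl7, Myl4, Sln, Dkk3, Mybphl, Fmod, Tuba4a, Gm28037 and Gm28062. Fmod encodes the collagen-binding proteoglycan fibromodulin and Tuba4a an alpha tubulin. Another 9 genes were lower at 4 weeks and higher at 24 and 32 weeks, opposite to Myl7 at 4 and 32 weeks, and 25 genes passed 4-fold at all 3 ages in any pattern. At the 1.5-fold threshold of the study, 117 of 1001 genes that passed at all 3 ages had the direction of Myl7. Without the 4-week libraries, 18 genes stood 4-fold above db/m at 24 weeks and 4-fold below it at 32 weeks.

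Where Myl7 was counted, the other genes kept different proportions to it. Myl4 had 2.60 (2.35 to 2.87) counts per Myl7 count in db/m at 32 weeks, 2.89 (2.57 to 3.25) in db/db at 4 weeks and 2.96 (2.71 to 3.24) at 24 weeks. With 26 Myl7 counts in db/db at 32 weeks the ratio was 4.46 (2.90 to 7.11). Sln stood at 0.216 (0.175 to 0.263), 0.181 (0.139 to 0.234) and 0.171 (0.139 to 0.209) in the first 3 libraries. For Myl4 and for Sln, the intervals of these 3 libraries overlapped.

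Dkk3 did not keep such a proportion. It had 0.922 (0.816 to 1.04) counts per Myl7 count in db/m at 32 weeks, 1.00 (0.898 to 1.12) in db/db at 24 weeks, and 2.53 (2.25 to 2.85) in db/db at 4 weeks, where its interval lay above both others. In db/db at 32 weeks the ratio was 4.15 (2.69 to 6.64). For Nppa the ratios were 8.13 (7.44 to 8.89) in db/m at 32 weeks, 4.91 (4.40 to 5.49) in db/db at 4 weeks and 5.33 (4.90 to 5.80) at 24 weeks. In db/db at 32 weeks, with little Myl7, the ratio was 35.0 (23.7 to 53.9), so the db/m library lay between the db/db libraries.

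**Figure D4:**
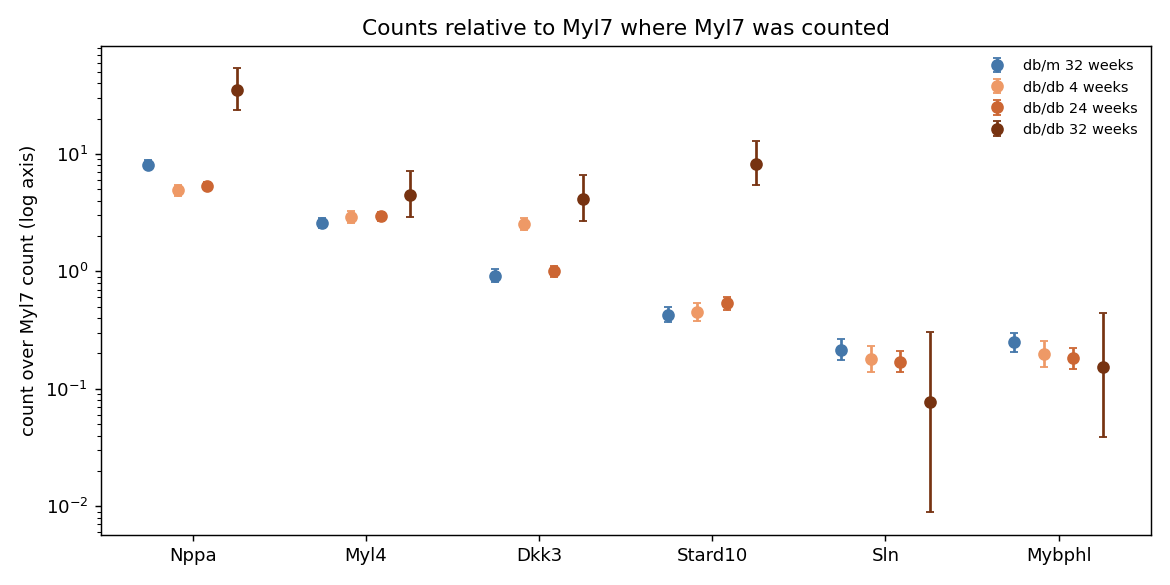
Counts of 6 genes divided by the Myl7 count of the same library (log vertical axis) in the 4 libraries where Myl7 was counted, with 95% counting intervals. Myl4, Sln and Mybphl have overlapping intervals in db/m at 32 weeks and db/db at 4 and 24 weeks, while Dkk3 is at 2.53 in db/db at 4 weeks against 0.922 and 1.00 in the other 2.

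A further 16 genes known to be higher in atrial than in ventricular muscle were examined, which the choice of the 7 did not use. Like the other lists, this one was chosen with earlier results of these data known. Mybphl, a myosin-binding protein of atrial muscle and conduction tissue (chromosome 3, 108364911 to 108380057), was counted 0, 0, 0 and 137 times in db/m and 78, 1, 120 and 4 times in db/db. Its level in db/db exceeded that in db/m by at least 19.7-fold at 4 weeks and 34.1-fold at 24 weeks, and at 32 weeks db/m was 36.3-fold (13.9 to 135) higher. Its count per Myl7 count was 0.248 (0.204 to 0.300) in db/m at 32 weeks, 0.199 (0.154 to 0.254) in db/db at 4 weeks, 0.181 (0.148 to 0.220) at 24 weeks and 0.154 (0.0390 to 0.443) at 32 weeks.

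The other genes of this list moved less. Past 4-fold, 2 of 16 stood above db/m in db/db at 4 weeks (Mybphl and Cacna2d2), beside 0.767% of all genes, and 0 of 14 differed at 12 weeks. Mybphl was the 1 of 16 that was higher at 24 weeks, beside 2.39%, and the 1 of 15 that was lower at 32 weeks, beside 1.24%. The median log2 fold over the list was 0.16, 0.34, 0.35 and -0.34 at 4, 12, 24 and 32 weeks, beside 0.02, 0.00, 0.02 and -0.01 over all genes. Cacna2d2, a calcium channel subunit, stood at 1.39, 1.98, 1.89 and 5.04 CPM in db/m and at 7.64, 3.56, 7.20 and 3.81 CPM in db/db. It was thus higher in db/db at 3 of 4 ages. Sbk3, a kinase gene of heart muscle, stood at 3.44, 3.48, 5.86 and 10.7 CPM in db/m and at 9.38, 10.7, 20.9 and 12.4 CPM in db/db. Hey1, a Notch target, ran from 2.68 CPM in db/db at 24 weeks to 15.7 CPM in db/m at 32 weeks.

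Over all ages the genotypes were compared for these further genes by edgeR's quasi-likelihood test with age as a block and Benjamini-Hochberg adjustment. None of 15237 genes was called at an adjusted p under 0.05 (0.00%), 1781 had an unadjusted p under 0.05, and the Wald test of DESeq2 called 274. Among the further atrial genes 0 of 14 were called (1 by DESeq2) and 5 had an unadjusted p under 0.05. Sbk3 was higher in db/db at 4 of 4 ages, by 1.26 ± 0.28 (log2, SE), with an adjusted p of 0.27 in edgeR. Kcnj3, a subunit of the acetylcholine-gated potassium channel of the atrium, was higher by 0.70 ± 0.22 at 4 of 4 ages. Its adjusted p was 0.36 in edgeR. Tbx5 was also higher at 4 of 4 ages (0.37 ± 0.11, adjusted p of 0.34 in edgeR). Other genes of the list were lower in db/db at 4 of 4 ages. They were Nr2f1 (-0.48 ± 0.26), Nr2f2 (-0.37 ± 0.14) and Gja5 (-0.38 ± 0.20), with adjusted p of 0.51, 0.39 and 0.51 in edgeR.

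The lists of ventricular genes and of genes of both chambers held no member past 4-fold at any age. Over ages, edgeR called 0 of 9 fitted ventricular genes, 4 had an unadjusted p under 0.05, and DESeq2 called 3. Myh7, the slow myosin heavy chain, was 3.62-fold higher in db/db at 24 weeks. Kcnip2, a subunit of the transient outward potassium channel, had an edgeR estimate of -0.85 ± 0.18 (log2, SE; adjusted p of 0.26), lower in db/db at 4 of 4 ages. In the ventricular list (Myl2, Myl3, Pln and others, 9 of 10 tested) the summed level ran from 7395 to 12641 CPM, with the lowest in db/m at 4 weeks. The 14 genes of both chambers summed to at most 180540 CPM. At 4, 12, 24 and 32 weeks the median log2 folds were 0.69, 0.22, -0.05 and 0.01 for the ventricular list and 0.59, 0.23, 0.04 and -0.13 for the shared list, so both medians were higher in db/db at 4 weeks. The 7 atrial genes summed to 82.9, 84.9, 92.4 and 385 CPM in db/m and to 214, 51.2, 287 and 68.3 CPM in db/db. Nppa was the largest part of each of these sums.

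The sinoatrial node lies in the wall of the right atrium, and 1 of its marker genes varied widely. Cpne5, a copine gene, was counted 7, 7, 2 and 13 times in db/m and 123, 10, 172 and 50 times in db/db. It was 13.3-fold (6.26 to 33.8) higher in db/db at 4 weeks. For 24 weeks, 172 counts against 2 gave a ratio of 73.4 (20.02 to 611). Unlike Myl7, it was not high in db/m at 32 weeks, where its count per Myl7 count was 0.0236 (0.0125 to 0.0406) against 0.314 (0.254 to 0.385) in db/db at 4 weeks and 0.260 (0.218 to 0.308) at 24 weeks. Hcn4, the pacemaker channel, stood at 4.77, 7.58, 5.58 and 4.93 CPM in db/m and at 12.1, 12.6, 11.4 and 5.24 CPM in db/db. Over ages, edgeR's estimate (log2, SE) was 0.79 ± 0.22 for Hcn4 and 2.93 ± 0.83 for Cpne5. Both were higher in db/db at 4 of 4 ages, each with an adjusted p of 0.33 in edgeR. Among 8 fitted node genes edgeR called 0, 3 had an unadjusted p under 0.05, and DESeq2 called 1. Of 8 tested node genes, 1 was past 4-fold higher at 4 weeks, beside 0.767% of all genes, 1 at 24 weeks, beside 2.39%, and 0 at the other ages.

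Markers of other tissues moved with the atrial genes in part. Smooth muscle genes (6 of 6 measured) summed to 252, 204, 278 and 370 CPM in db/m and 367, 132, 230 and 176 CPM in db/db, with the 2 highest sums in db/m at 32 weeks and db/db at 4 weeks. Past 4-fold was 1 of these 6, Cnn1, lower in db/db at 32 weeks, beside 1.24% of all genes. Cnn1, which encodes the smooth muscle protein calponin, ran from 1.10 CPM in db/db at 12 weeks to 6.09 CPM in db/m at 32 weeks. Fat cell genes (7 of 7 measured) summed to 3.73 CPM in db/m at 32 weeks, 4.66 in db/db at 4 weeks and 1.93 in db/m at 4 weeks, and to between 0.138 and 0.866 CPM elsewhere. Past 4-fold, 3 of 5 tested were higher in db/db at 4 weeks, beside 0.767% of all genes, and 2 of 4 lower at 32 weeks, beside 1.24%. Of the fast skeletal muscle genes, 9 of 11 were past 4-fold lower in db/db at 4 weeks, beside 2.53% of all genes. In the db/m library of that age Myh4 was counted 864 times and the neuronal gene Snap25 462 times, and the neuronal list summed to 28.5 CPM against 0.787 to 3.89 CPM elsewhere. Skeletal muscle also makes Sln, which was at 0 in db/m at 4 weeks. Epicardial genes summed to between 11.1 and 21.4 CPM, highest in db/m at 32 weeks. Lung genes reached at most 0.859 CPM, with 5 of 6 at 0 everywhere, and thymus genes at most 0.859 CPM. The part of these tissues in the atrial values was not tested.

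**Figure D5:**
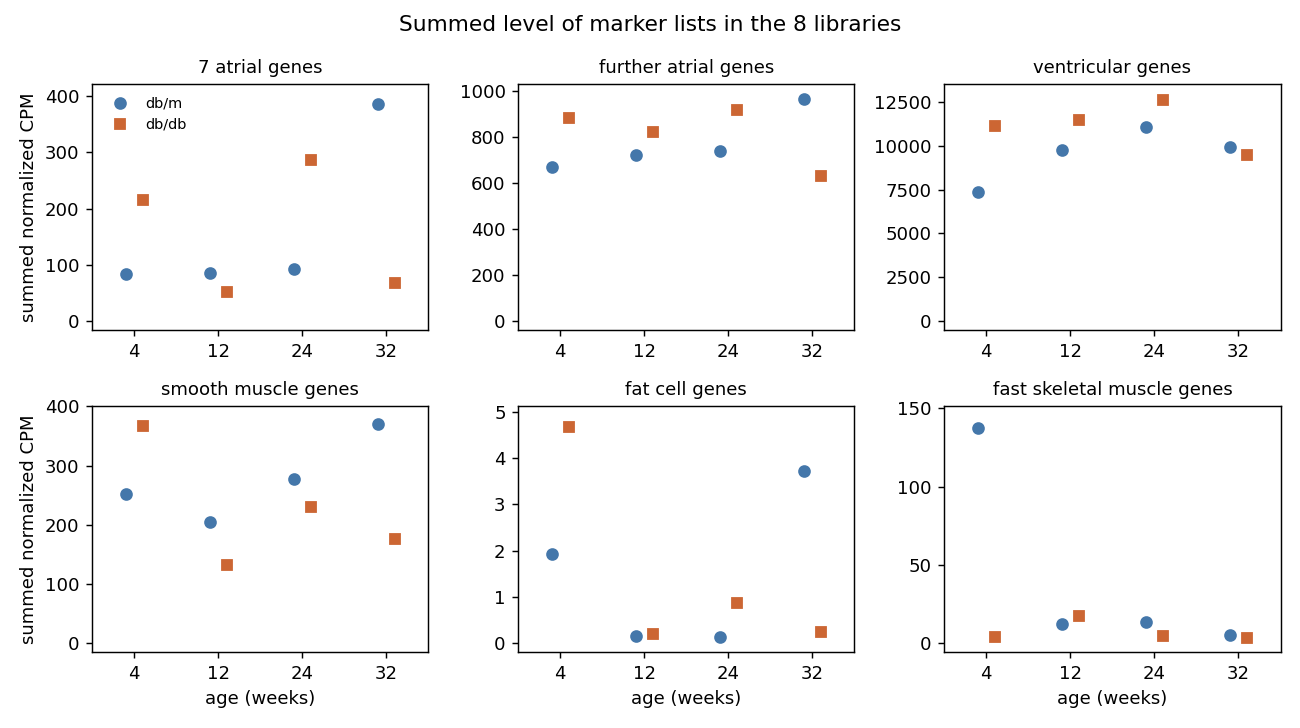
Summed TMM-normalized CPM (vertical axes) of 6 gene lists against age in weeks, 1 library per point, circles for db/m and squares for db/db. The 7 atrial genes reach 385 CPM in db/m at 32 weeks, fat cell genes are highest in db/db at 4 weeks, and fast skeletal muscle genes are high in db/m at 4 weeks alone.

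Family members of the atrial genes were set beside them. Of the 9 myosin light chain genes, 2, Myl7 and Myl4, exceeded 4-fold with db/db above db/m at 4 and 24 weeks and below it at 32. Both were chosen for this pattern, which 0.0571% of 15765 genes shared. Past 4-fold lower in db/db was 1 of 9 at 4 weeks, beside 2.53% of all genes. This was Mylpf, at 5.80 CPM in db/m and 0.229 CPM in db/db. At 24 weeks 1 of 8 was past 4-fold lower (Myl1), beside 1.46%. Myl1, the essential light chain of fast skeletal muscle, went another way, at 5.02, 11.2, 12.0 and 3.73 CPM in db/m and 1.42, 14.9, 1.97 and 0.989 CPM in db/db. In the calcium pump list, Atp2a2, the pump of heart muscle, ran from 10076 to 16029 CPM, while Atp2a1, the pump of fast skeletal muscle, stood at 37.2 CPM in db/m at 4 weeks and at most 0.787 CPM elsewhere. At 4 weeks, 1 of 7 tested was past 4-fold higher in db/db (Sln), beside 0.767% of all genes. In the same pair 1 of 7 was past 4-fold lower (Atp2a1), beside 2.53%. Sln, one of the genes chosen for this pattern, was the 1 of 7 past 4-fold higher at 24 weeks, beside 2.39% of all genes. It was also the 1 of 7 past 4-fold lower at 32 weeks, beside 1.24%.

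Nppb encodes the brain natriuretic peptide of strained ventricular muscle. Its levels were 33.5, 89.1, 104 and 108 CPM in db/m and 27.1, 26.3, 62.1 and 13.8 CPM in db/db, lower in db/db at every age. Over ages the edgeR estimate was -1.43 ± 0.42 (log2, SE; adjusted p of 0.34). Nppa and Nppb thus went the same way at 12 and 32 weeks and opposite ways at 4 and 24 weeks, where Nppa was higher in db/db. Corin, the protease that activates the Nppa product, ran from 269 to 381 CPM, and Pam, which amidates peptides and sits in atrial granules, from 378 to 671 CPM. Of the 8 tested natriuretic genes, 2 passed 4-fold, both lower in db/db at 32 weeks, beside 1.24% of all genes. They were Nppb and Nppa, and Nppa is one of the genes chosen for this pattern. Among the wall stress genes, Acta1, skeletal alpha actin, stood at 201, 369, 201 and 739 CPM in db/m and 352, 182, 298 and 82.6 CPM in db/db. It was 8.94-fold (8.50 to 9.42) higher in db/m at 32 weeks. Of 6 stress genes, 2 were past 4-fold lower in db/db at 32 weeks (Acta1 and Nppb), beside 1.24% of all genes. At the earlier ages 0 differed by 4-fold. Over ages, edgeR called 0 of the 6 stress genes, 2 had an unadjusted p under 0.05, and DESeq2 called 1.

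None of the genes around Bmp10 passed 4-fold at any age. Over ages, edgeR called 0 of 9 fitted, 2 had an unadjusted p under 0.05, and DESeq2 called 1. Acvrl1, its receptor on endothelium, ran from 31.1 to 54.6 CPM, and Eng, the co-receptor endoglin, from 91.2 to 147 CPM. The target Id1 was highest in db/m at 32 weeks (61.0 CPM) and db/db at 32 weeks (54.0 CPM), at 26.3 to 42.5 CPM in the other 6. Tcap, which encodes a titin-binding protein known to bind BMP10, was higher in db/db by 0.53 ± 0.10 (log2, SE; 4 of 4 ages, adjusted p of 0.23 in edgeR). Dkk3 was the only dickkopf gene that could be compared at 12, 24 and 32 weeks.

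The study concerned retinol metabolism, and retinoic acid takes part in shaping the atria. Of 15 retinoid genes, 10 to 12 had enough counts per age, and 1 passed 4-fold, higher in db/db at 32 weeks, beside 1.61% of all genes. This was Cyp26b1, which degrades retinoic acid, at 22.9, 19.9, 11.9 and 4.83 CPM in db/m and 8.60, 53.8, 19.5 and 19.9 CPM in db/db. Its lowest levels were those of db/m at 32 weeks and db/db at 4 weeks, 2 of the libraries rich in Myl7, but db/db at 24 weeks was not low. Aldh1a2, which makes retinoic acid and is abundant in epicardium, ran from 1.39 to 4.14 CPM. Rdh10, which oxidizes retinol, ran from 6.83 to 9.90 CPM, the retinaldehyde reductase gene Dhrs3 from 47.4 to 84.7 CPM, and Aldh1a1 from 17.9 to 24.5 CPM. The receptors ran from 13.1 to 18.8 CPM for Rara, 14.4 to 19.8 CPM for Rarb and 13.0 to 26.2 CPM for Rarg. Of these, Dhrs3 had an edgeR estimate of -0.51 ± 0.12 (log2, SE) and an adjusted p of 0.28. Its level in db/db lay below that in db/m at 4 of 4 ages. Among 10 fitted retinoid genes edgeR called 0, 1 had an unadjusted p under 0.05, and DESeq2 called 1.

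Genes were ranked by how closely they followed Myl7 over the 8 libraries, by Pearson's r of log2 CPM, as a description with no p, since the libraries share depth and scaling and fall into high and low levels. Of 704 genes that varied enough, the nearest outside the 7 was Mybphl, with r = 0.985. After it came Hamp (0.940), the iron hormone hepcidin, Cyct (0.909), Prss35 (0.909), Gata5 (0.908), Fam131c (0.904), Rxfp1 (0.904), Nnat (0.898), Ereg (0.890) and Ppp1r1b (0.884). Among the 7, r was 0.989 for Myl4, 0.977 for Sln and 0.931 for Dkk3, while Nppa, Bmp10 and Stard10 varied too little to be ranked. Most of the neighbours were sparse. Hamp was counted 0, 0, 1 and 11 times in db/m and 11, 3, 19 and 7 times in db/db, and Gata5, a transcription factor of the early atria and endocardium, 0, 0, 0 and 6 times in db/m and 25, 0, 15 and 10 times in db/db. Fam131c, the one with the next highest counts after Mybphl, was counted 10, 7, 8 and 69 times in db/m and 35, 3, 102 and 45 times in db/db. With Spearman's rho in place of r, 4 of these 10 stayed among the nearest 10.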

How the data were processed

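RNA from mouse hearts was sequenced by the authors from strand-specific libraries after rRNA depletion, 1 library for each of 2 genotypes at 4 ages. The authors deposited 1 table of 34745 genes with a whole-number read count per gene, without normalization, and an FPKM value, which divides by gene length and library total. The submitters' processing notes name HISAT2, StringTie 1.3.0 and GRCm38 (mm10). The tool that counted the reads is not given in the sources used here. Of 34267 gene identifiers shared with GENCODE vM21, 34233 overlapped the position there.

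TMM factors and the quasi-likelihood test came from edgeR 4.0.16 (R 4.3.3), the Wald test from DESeq2 1.42.0, and the rest from Python 3.11.15 with scipy 1.17.1. The block is the age that a pair of libraries shared, not a link between animals. A pair of libraries was compared for genes with at least 10 counts in sum. Counts at or under 3 were raised to 3 for calls past a fold, ranges, list medians and folds against 0 counts, which are lower bounds. Ratios against 1 to 3 counts are of the counts themselves, with their interval. Intervals are exact 95% binomial intervals. Likeness to Myl7 used a prior count of 2, at least 10 counts in 2 libraries and an SD of at least 1. The atrial genes and all 19 gene lists were chosen with earlier results of these data known, so the atrial genes were described and not tested. Named genes are the atrial genes, up to 4 genes per list with the largest range and at least 50 counts in 1 library, those a family comparison needs, the 10 nearest to Myl7 and the retinoid genes with at least 50 counts. Cacna2d2, Kcnj3, Tbx5, Nr2f1, Nr2f2, Gja5, Eng and Tcap were named with their values in view. So were the genes that shared the direction of Myl7 and the 8 genes of the closing section. Alternatives covered other scalings, FPKM ratios, a 1.5-fold threshold, other filters, other tests and leaving out each age. The 4-fold call of a pair, the interval of a ratio, the likeness to a profile and the edgeR fit were tested on simulated counts. The other steps were not. Values of 2 genes of the lists are not reported here.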

Additional observations from a re-analysis of the deposited data

Results flagged for a closer look

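For 5 of the atrial genes described, the genotype difference was at least 4-fold at both 24 and 32 weeks and went opposite ways. Each age has 1 library per genotype, and so a single difference, and the difference between the ages was not tested. Nppa also went opposite ways, by less than 4-fold at 24 weeks. On the log2 scale, with counts under 3 raised to 3, the fold of db/db over db/m at 24 weeks minus that at 32 weeks was 12.05 for Myl7, 9.29 for Myl4, 10.40 for Sln, 6.22 for Dkk3 and 10.28 for Mybphl. Where a library held under 3 counts (Myl7, Sln and Mybphl in db/m at 24 weeks, Sln in db/db at 32 weeks) the value is a lower bound.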

How the results depend on the processing

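With library totals alone, DESeq2 size factors, the authors' FPKM, scaling to the summed counts of the shared cardiomyocyte genes or a filter of 1 count, the number of atrial members past 4-fold at each age stayed within 1.5 times the values given above. With a threshold of 1.5-fold, 2 members passed at 12 weeks, and of the further atrial genes 9, 4, 8 and 5 passed at 4, 12, 24 and 32 weeks. Scaled to the shared cardiomyocyte genes, 2 further atrial genes passed 4-fold at 24 weeks. For genotype over ages, the Wald test of DESeq2 called 274 genes and the edgeR fit with no age block 1, and edgeR called 0 with other scalings, a filter of 1 count or without each age in turn (1140 to 2044 genes at an unadjusted p under 0.05). Genes with the direction of Myl7 numbered 117 at 1.5-fold, 18 without the libraries of 4 weeks and 8 or 9 under the other scalings, and all these alternatives for this count were chosen after seeing the data. With Spearman's rho, 4 of the 10 genes nearest to Myl7 were shared. The cause of these shifts was not tested, except that a lower threshold or fewer ages admits more genes by construction. The share of the atrial light chain moved with the gene pair and with length, as given above. The edgeR fit over ages pairs the libraries of equal age as a block, and no analysis paired by animal was possible, because the labels link no animals between groups. Counts of 0 limit Myl7 to under 0.181 CPM in the shallowest library.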

Other observations

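Libraries of db/m at 12 and 24 weeks and of db/db at 12 weeks, in which Myl7 was at 0, also stood apart on genes outside the lists used here. Looked for after the values were seen, 8 of 14510 genes with at least 30 counts in 1 library differed by 4-fold or more without overlap between these 3 libraries and the other 5. Mis12, a kinetochore gene, was counted 176, 171 and 197 times in them and 13 to 17 times in the others. The gene 6820402A03Rik was counted 110, 136 and 164 times against 0 to 13. Gm3716, 3110053B16Rik and Tmc5 were also higher in the 3 libraries. H2-Q1, a major histocompatibility gene, was counted 5, 0 and 0 times in them and 35 to 321 times in the others, and Nfasc and Gm10499 were lower as well. H2-Q1 and Gm10499 lie on chromosome 17. The library of db/m at 4 weeks held no Myl7 either and was among the other 5 on these genes.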
